A study of Homo sapiens with 4 samples.

Results

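Protein synthesis slows and a set of adaptive genes is transcribed when cells lack amino acids or cannot fold proteins. The 32 genes described here belong to that response, in which the transcription factors ATF4 and CHOP act, and were listed by name and found by Ensembl ID among the 60617 gene IDs of the table. All 32 were found. These genes and the related lists used below were chosen with earlier results of these data known. Their shares beside those of all genes are therefore not independent of the choice. They comprise 14 transcription factors, feedback regulators and other targets, 10 enzymes of amino acid and one-carbon metabolism, 6 amino acid transporters and 2 kinases of the translation factor eIF2alpha.

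The series measured mRNA in T24 and 5637, a pair of established human bladder cancer cell lines, after 6 h with protodioscin, a steroidal saponin made by plants such as fenugreek. The 4 libraries were T24 with 60 µM protodioscin, T24 untreated, 5637 with 70 µM protodioscin and 5637 untreated. The doses follow the sample titles; the protocol text writes these numbers with a millimolar unit. All cells were grown in RPMI medium with serum and antibiotics, the untreated cells have no stated vehicle, and there was 1 library per group. Differences within a line therefore have no replicate check. No p-value was computed for them, and the 2 libraries of a line were compared by size alone.

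The deposited values are FPKM (fragments scaled by transcript length and by library depth), which can be compared between genes. Differences are given as protodioscin minus untreated in log2(FPKM + 1), a scale that compresses ratios where FPKM is low. Within a line, genes were compared if either library had 1 FPKM or more. The lowest values were spaced by 0.0171 to 0.0245 FPKM on a transcript of 1 kb, depending on the library. That step was taken as 1 read, and 1 fragment was set at 2 reads, 0.0342 to 0.0490 FPKM. Whether the step is 1 read or 1 fragment was not tested. If it is 1 fragment, the fragment numbers below are too low and the counting intervals too wide. Relative to untreated T24, depth was 1.28 times for treated T24, 1.19 times for treated 5637 and 1.43 times for untreated 5637. Ratios of FPKM below carry a 95% exact interval for counting error, from approximate fragment numbers at the gene's median transcript length; it does not cover differences between cultures. Exons are shared with another annotated gene on the same strand by 3 genes of the list (DDIT3, ASNS and PYCR1) and on the opposite strand by 11, and libraries without strand cannot separate such reads. The partner reached 1 FPKM for DDIT3 and SLC1A5 only. Of 5 epithelial markers, the keratins KRT8 and KRT18 were at 227 FPKM or more in every library. KRT19 was at 54.2 and 85.7 FPKM in treated and untreated T24, and at 1125 and 1388 FPKM in treated and untreated 5637. EPCAM was at 2.35 and 2.09 FPKM in treated and untreated T24, and at 106 and 108 FPKM in treated and untreated 5637. CDH1 (E-cadherin) was listed at 0 and at 0.0160 FPKM in treated and untreated T24, and at 72.3 and 69.6 FPKM in treated and untreated 5637. The 3 basal urothelial markers summed to 0.0913 FPKM or less in T24, and to 735 and 933 FPKM in treated and untreated 5637. Of 3 mesenchymal markers, FN1 (191 to 1530 FPKM in the 4 libraries) and ZEB1 (0.0702 to 8.46 FPKM) were higher in T24. VIM (61.4 to 304 FPKM) was higher in 5637. The 4 leukocyte and 2 erythroid markers stayed at 0.181 FPKM or lower. Of 3 endothelial markers, CDH5 was at 0.777 FPKM in treated and 1.57 FPKM in untreated T24, and the list summed to 0.0394 FPKM or less in 5637. Of 3 fibroblast markers, COL1A1 was at 7.52 FPKM in treated and 6.81 FPKM in untreated 5637 and below 1 FPKM in T24, and DCN was listed at 0 in all libraries.

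In the integrated stress response, kinases such as PERK, which senses unfolded protein in the endoplasmic reticulum, and GCN2, which senses uncharged tRNA, phosphorylate eIF2alpha. General translation then falls while translation of ATF4 mRNA rises, so that ATF4 is set largely at the protein level and its mRNA is only part of its control. ATF4 pairs with C/EBP proteins on composite DNA elements and drives genes for amino acid uptake, serine and asparagine synthesis and tRNA charging. Prolonged signalling adds CHOP, and feedback genes such as PPP1R15A and TRIB3 restrain the response.

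The composite C/EBP-ATF element links several of the genes to ATF4, so the promoters were searched for it. RefSeq promoter windows (GRCh38.p14, from 250 bases before to 50 after a start site) were found for 26 of the 32 genes by symbol. The letters TGATGNAA, on either strand, occurred in a window of 6 of the 26 genes, ASNS, CHAC1, SLC1A4, SLC1A5, CEBPG and SLC3A2. They occurred in 3.62% of all 35116 windows, and in at least 1 window of 4.46% of 27305 genes. The 32 genes were listed as members of the ATF4 response, so this share is not independent of the choice. The sites are printed 5′ to 3′ on the gene's strand, with the matched letters in capitals. They show that the element reads forward in ASNS, CEBPG and SLC1A5 and in reverse in CHAC1, SLC1A4 and SLC3A2.
ASNS, chr7:97872458-97872487, minus strand: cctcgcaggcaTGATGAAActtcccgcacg
CHAC1, chr15:40953251-40953280, plus strand: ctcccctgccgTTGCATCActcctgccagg
SLC1A4, chr2:64989381-64989410, plus strand: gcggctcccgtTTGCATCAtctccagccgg
CEBPG, chr19:33374060-33374089, plus strand: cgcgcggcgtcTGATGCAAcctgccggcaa
SLC1A5, chr19:46784893-46784922, minus strand: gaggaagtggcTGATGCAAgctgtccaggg
SLC3A2, chr11:62881725-62881748, plus strand: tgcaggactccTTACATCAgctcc
The match began 68 bases upstream of the start site in ASNS, 209 in CHAC1, 42 in CEBPG, 97 in SLC1A5 and 7 in SLC1A4, and 38 bases downstream in SLC3A2. The cyclic AMP response element TGACGTCA, a palindrome, was found in 1 gene, PPP1R15A, 58 bases upstream, in 1.85% of all windows and in 2.25% of genes.
PPP1R15A, chr19:48872352-48872381, plus strand: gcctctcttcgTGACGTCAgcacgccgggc
No gene of the list held both elements, and a match of letters is not evidence of binding. The 6 genes with TGATGNAA had a median log2 difference with protodioscin of 0.10 in T24 and 0.15 in 5637, with 5 of 6 above 0 in each line. The 19 compared genes with a window but without the letters had medians of 0.03 and 0.08, with 11 of 19 above 0 in each line. Over all genes the medians were 0.02 and 0.04, with 56.0% and 61.5% above 0, and the groups of genes were not tested against each other.

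**Figure D1:**
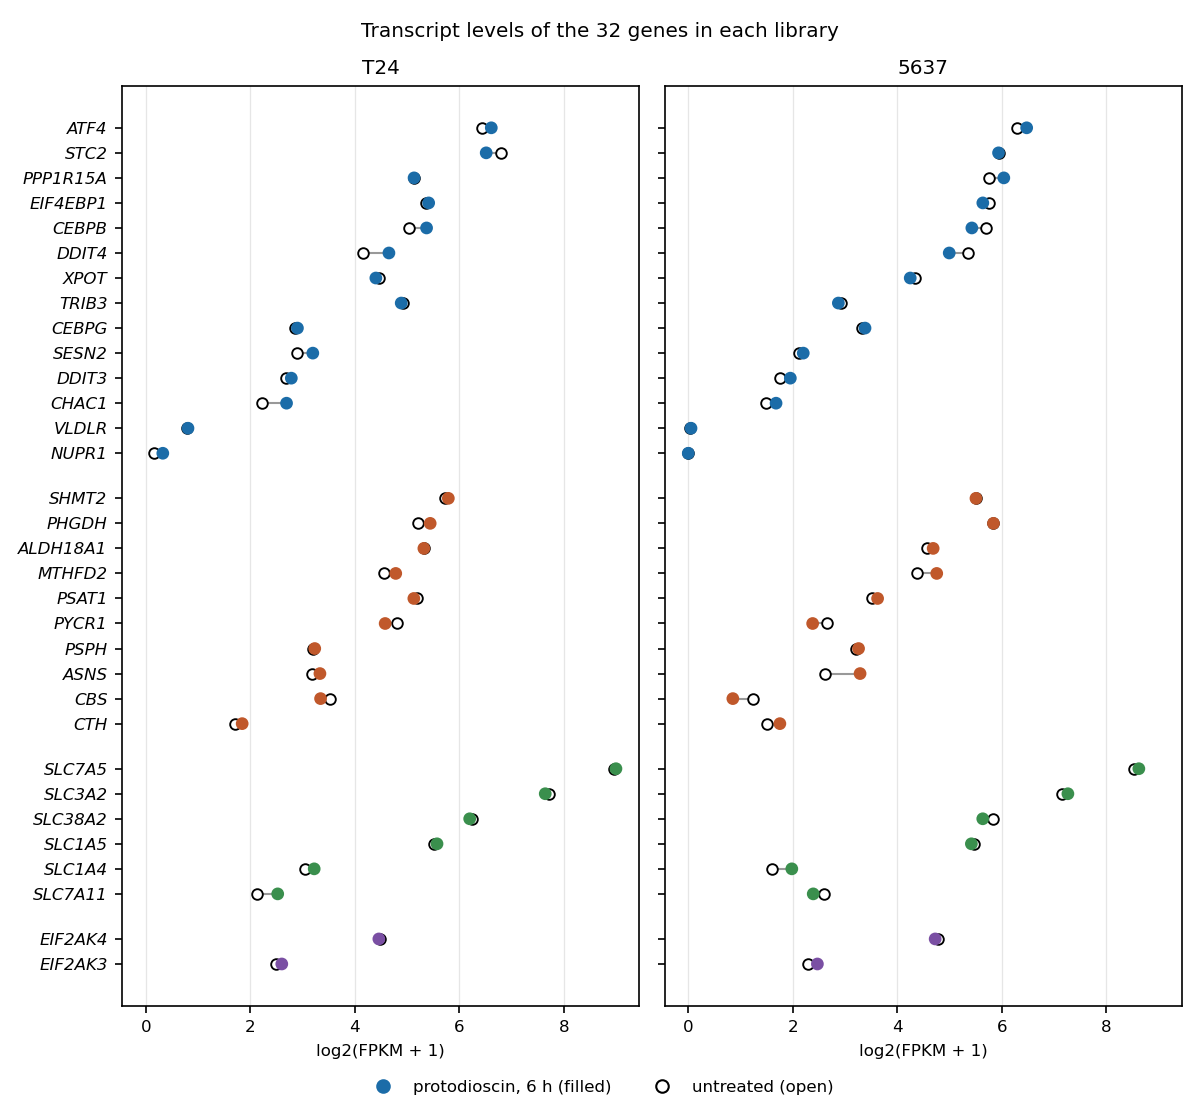
Transcript level of each gene in log2(FPKM + 1), in T24 on the left and 5637 on the right, with filled points for the protodioscin library and open points for the untreated library. Genes are grouped by role and ordered by mean level. Levels span from SLC7A5 at 368 FPKM or more to NUPR1, which was listed at 0 in both 5637 libraries, and most filled and open points lie close together.

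Most of the genes were well transcribed in both lines with or without protodioscin. In treated T24, treated 5637 and both untreated libraries, 29 or 30 of the 32 genes reached 1 FPKM. Among those, the median was 25.3 FPKM in treated and 24.8 FPKM in untreated T24, and 24.7 FPKM in treated and 19.5 FPKM in untreated 5637. The 5637 medians cover 29 genes in treated and 30 in untreated cells, because CBS was at 0.806 FPKM in treated cells. Over all 32 genes, the median was 14.6 FPKM in treated and 14.8 FPKM in untreated 5637. In T24 it was 23.5 FPKM in treated and 22.0 FPKM in untreated cells. The median over all genes at 1 FPKM or more was 8.88 to 9.67 FPKM. NUPR1, a small stress-induced nuclear protein, was at 0.254 FPKM in treated and 0.112 FPKM in untreated T24 and was listed at 0 in both 5637 libraries. VLDLR, the very low density lipoprotein receptor and a target of ATF4, was at 0.751 and 0.722 FPKM in treated and untreated T24, and at 0.0371 and 0.0206 FPKM in treated and untreated 5637. Both were below the limit for comparison in both lines.

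With protodioscin, the list as a whole lay close to the middle of all genes. In T24, the median difference of the 30 compared genes was 0.05 on the log2 scale, with 20 above 0 and 10 below, against a median of 0.02 with 56.0% above 0 and 44.0% below over 12193 genes. In 5637 the median was 0.06, with 18 of 30 above 0 and 12 below, against 0.04 with 61.5% above and 38.5% below over 12635 genes. With median-ratio scaling of the libraries, 46.5% of all genes and 16 of the 30 genes were above 0 in 5637. None of the 30 genes reached 1 on the log2 scale, a 2-fold difference on that scale, in either line, in either direction. In T24, 0.205% of all genes were that much higher and 0.279% that much lower, and in 5637, 0.174% and 0.214%.

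At a smaller size, 0.25 on the log2 scale, 5 genes were higher and 1 was lower in treated T24. Those shares, 5 of 30 and 1 of 30, stand beside 8.0% of all genes higher and 8.58% lower. In 5637, 4 genes were higher and 4 lower in treated cells, beside 9.31% and 6.4% of all genes. With median-ratio scaling the 5637 split was 3 higher and 6 lower, and it was 4 and 5 with TPM or quantile scaling. None of the genes passed this size with the same sign in T24 and in 5637 on the log2(FPKM + 1) scale. The genes were DDIT4, CHAC1, SLC7A11, CEBPB and SESN2 upward and STC2 downward in T24, and ASNS, SLC1A4, MTHFD2 and PPP1R15A upward and CBS, DDIT4, CEBPB and PYCR1 downward in 5637. With a pseudocount of 0.1, CHAC1 was past 0.25 upward in both lines, at 0.57 in T24 and 0.26 in 5637.

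**Figure D2:**
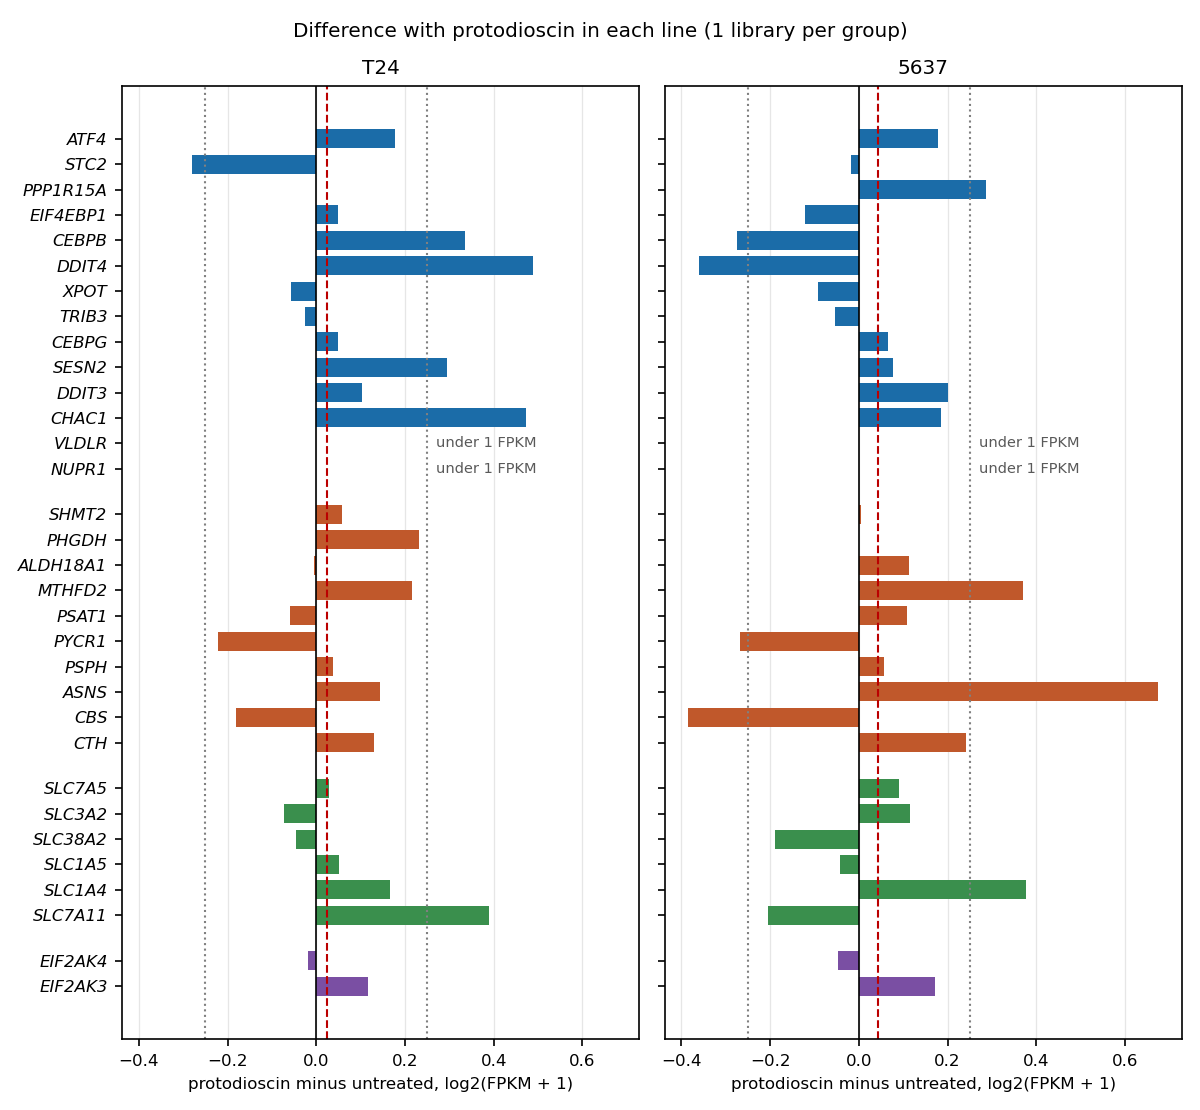
Protodioscin minus untreated in log2(FPKM + 1) for each gene, T24 on the left and 5637 on the right, as bars from 0 with 1 library per group and so no error bar. Dotted lines mark 0.25 in either direction and the dashed line the median of all genes compared. CHAC1 and DDIT4 have the longest bars in T24, at 0.47 and 0.49, and ASNS has the longest in 5637, at 0.68.

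The eIF2alpha kinases, at the head of the pathway, were at moderate levels and differed little with treatment. EIF2AK3, which encodes PERK, was at 5.07 FPKM in treated and 4.60 FPKM in untreated T24, and at 4.54 FPKM in treated and 3.92 FPKM in untreated 5637. The log2 differences were 0.12 and 0.17, and the counting intervals of its ratios, 0.939 to 1.29 in T24 and 0.989 to 1.35 in 5637, included 1. EIF2AK4, which encodes GCN2, was more abundant, at 21.0 and 21.3 FPKM in treated and untreated T24 and at 25.4 and 26.3 FPKM in treated and untreated 5637. Its ratios of 0.987 in T24 and 0.967 in 5637 had counting intervals that included 1.

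ATF4 mRNA (ENSG00000128272, chromosome 22, 39519695 to 39522685 on GRCh38) was abundant and was higher in both treated libraries. It was at 96.7 FPKM in treated and 85.4 FPKM in untreated T24. In 5637 it was at 87.9 FPKM in treated and 77.5 FPKM in untreated cells. The log2 difference was 0.18 in both lines, and the ratio was 1.13 in each, with counting intervals of 1.08 to 1.19 in T24 and 1.09 to 1.18 in 5637. With other scalings the log2 difference was 0.16 to 0.19 in T24 and 0.12 to 0.21 in 5637, and a difference between the lines was not tested. The ranges of the lines overlapped, with treated 5637 above untreated T24.

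DDIT3, which encodes CHOP, was transcribed at low levels (ENSG00000175197, chromosome 12, 57516588 to 57521737). It was at 5.89 FPKM in treated and 5.42 FPKM in untreated T24, and at 2.87 FPKM in treated and 2.37 FPKM in untreated 5637. The log2 differences were 0.10 and 0.20, and both ratios, 1.09 and 1.21, had counting intervals that included 1. DDIT3 shares exons with MARS1 (MARS in GENCODE 29) on the opposite strand, which was at 43.7 to 45.8 FPKM in the 4 libraries, and with MBD6, at 9.88 to 13.7 FPKM.

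Of the C/EBP partners of ATF4, CEBPB differed in opposite directions in the lines and CEBPG differed little. CEBPB, which binds DNA as a dimer with ATF4 and other factors, was at 40.4 FPKM in treated and 31.9 FPKM in untreated T24, a log2 difference of 0.33. In 5637 it went the other way, at 42.0 FPKM in treated and 51.0 FPKM in untreated cells (-0.27). The counting intervals of the ratios were 1.18 to 1.36 in T24 and 0.777 to 0.872 in 5637, on opposite sides of 1. CEBPG, a short C/EBP protein that also pairs with ATF4, was at 6.48 and 6.23 FPKM in treated and untreated T24 and at 9.42 and 8.96 FPKM in treated and untreated 5637.

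Among the feedback genes and inhibitors of growth signalling, DDIT4 was higher with protodioscin in T24 and lower in 5637. DDIT4, also called REDD1, which inhibits mTORC1 (chromosome 10, 72273920 to 72276036), was at 24.1 FPKM in treated and 16.9 FPKM in untreated T24. It was at 30.8 FPKM in treated and 39.9 FPKM in untreated 5637. The log2 differences were 0.49 and -0.36 and the ratios 1.43 (1.22 to 1.67) and 0.773 (0.695 to 0.861). The treated T24 and treated 5637 libraries lay between the untreated ones. SESN2, the sestrin that signals leucine shortage to mTORC1, was at 8.17 FPKM in treated and 6.47 FPKM in untreated T24 (0.30), and at 3.59 FPKM in treated and 3.35 FPKM in untreated 5637 (0.08).

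PPP1R15A, also called GADD34, which brings the phosphatase that reverses eIF2alpha phosphorylation, was at 34.1 FPKM in both T24 libraries. In 5637 it was at 64.6 FPKM in treated and 52.8 FPKM in untreated cells, a log2 difference of 0.29 and a ratio of 1.22 (1.17 to 1.28). TRIB3, a pseudokinase induced by ATF4 and CHOP that inhibits ATF4, was at 28.6 and 29.1 FPKM in treated and untreated T24 and at 6.32 and 6.60 FPKM in treated and untreated 5637. Its level was higher in T24 than in 5637 with or without protodioscin. EIF4EBP1, the translation repressor 4E-BP1, was at 41.6 and 40.2 FPKM in treated and untreated T24 and at 48.7 and 53.1 FPKM in treated and untreated 5637.

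CHAC1, which degrades glutathione and is a sensitive target of ATF4 (chromosome 15, 40952962 to 40956519), was higher in both treated libraries. It was at 5.47 FPKM in treated and 3.67 FPKM in untreated T24, a log2 difference of 0.47 and a ratio of 1.49 (1.17 to 1.90). It was at 2.203 FPKM in treated and 1.82 FPKM in untreated 5637 (0.19), where about 76 fragments lay behind each value and the counting interval of the ratio, 0.867 to 1.68, included 1. STC2, the secreted stanniocalcin-2, was at 90.3 FPKM in treated and 109.9 FPKM in untreated T24 (-0.28), and at 60.2 and 60.9 FPKM in treated and untreated 5637. XPOT, which exports tRNA from the nucleus, lay within 0.1 on the log2 scale of its untreated level in both lines.

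Among the enzymes, asparagine synthetase had the largest difference of all 32 genes. ASNS (ENSG00000070669, chromosome 7, 97852118 to 97872542) makes asparagine from aspartate and glutamine and carries the promoter element printed first above. It was at 8.76 FPKM in treated and 5.11 FPKM in untreated 5637, a log2 difference of 0.68 and a ratio of 1.71 (1.44 to 2.03). In T24 it was at 9.07 FPKM in treated and 8.12 FPKM in untreated cells (0.14), a ratio of 1.12 (0.952 to 1.31). Untreated 5637 was the low library, and the other three lay between 8.12 and 9.07 FPKM. On the log2(FPKM + 1) scale, 1 gene of the list, ASNS, was past 0.5 in either line. With a pseudocount of 0.1 there were 5 (ASNS, CBS, CHAC1, DDIT4 and SLC1A4), with TPM scaling 4 (the same without SLC1A4), and with a pseudocount of 5 there were 0. In 5637, 1.01% of all genes were that much higher and 1.11% that much lower, and in T24, 1.03% and 2.23%.

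The mitochondrial one-carbon enzyme MTHFD2 (chromosome 2, 74198562 to 74217565), which oxidises the folate-bound unit that SHMT2 takes from serine, was higher in both treated libraries. It was at 26.5 FPKM in treated and 22.7 FPKM in untreated T24 (0.22). It was at 25.97 FPKM in treated and 19.9 FPKM in untreated 5637 (0.37). Both ratios, 1.17 (1.06 to 1.29) and 1.31 (1.19 to 1.44), had counting intervals above 1. SHMT2 itself was at 54.3 and 52.1 FPKM in treated and untreated T24 and at 44.4 and 44.2 FPKM in treated and untreated 5637.

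Serine synthesis from glucose uses PHGDH, PSAT1 and PSPH in turn. PHGDH, the first enzyme, was at 42.5 FPKM in treated and 36.0 FPKM in untreated T24 (0.23) and at 56.2 FPKM in both 5637 libraries. PSAT1, the aminotransferase, was at 34.0 and 35.4 FPKM in treated and untreated T24 and at 11.3 and 10.4 FPKM in treated and untreated 5637. PSPH, the phosphatase, stood between 8.16 and 8.57 FPKM in all 4 libraries. No step of the chain reached 0.25 in either line.

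The enzymes that pass sulfur from homocysteine to cysteine went apart. CBS, which joins homocysteine to serine, was at 9.16 FPKM in treated and 10.5 FPKM in untreated T24 (-0.18), and at 0.806 FPKM in treated and 1.36 FPKM in untreated 5637 (-0.38). CTH, which releases cysteine in the next step, was at 2.59 FPKM in treated and 2.28 FPKM in untreated T24 (0.13) and at 2.37 FPKM in treated and 1.85 FPKM in untreated 5637 (0.24). The counting intervals of all 4 ratios included 1, and in 5637 CBS rested on about 16 and 33 fragments in treated and untreated cells.

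For proline, ALDH18A1 makes the precursor and PYCR1 closes the last step. PYCR1 was lower in both treated libraries, at 22.9 FPKM in treated and 26.9 FPKM in untreated T24 (-0.22), and at 4.20 FPKM in treated and 5.27 FPKM in untreated 5637 (-0.27). Its counting interval lay below 1 in T24, at 0.751 to 0.966, and included 1 in 5637, at 0.599 to 1.05. ALDH18A1 was at 39.0 and 39.1 FPKM in treated and untreated T24 and at 24.7 and 22.8 FPKM in treated and untreated 5637.

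The transporters held the most abundant genes of the list. SLC7A5, the LAT1 carrier of leucine and other large neutral amino acids, was at 509 and 499 FPKM in treated and untreated T24 and at 392 and 368 FPKM in treated and untreated 5637, above 99.2% or more of the genes at 1 FPKM in each library. Its partner chain SLC3A2 was at 199 and 209 FPKM in treated and untreated T24 and at 153 and 141 FPKM in treated and untreated 5637. Neither differed by more than 0.12 on the log2 scale. SLC1A5, which carries glutamine (41.7 to 46.6 FPKM in the 4 libraries) and SLC38A2, which carries small neutral amino acids (48.6 to 74.7 FPKM), also stayed within 0.19.

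The less abundant transporters differed more. SLC1A4, which carries alanine, serine and cysteine and holds the element at its start site, was at 8.34 FPKM in treated and 7.32 FPKM in untreated T24 (0.17). It was at 2.95 FPKM in treated and 2.04 FPKM in untreated 5637 (0.38), a ratio of 1.44 (1.04 to 1.99). SLC7A11, the cystine carrier that also answers to the antioxidant factor NRF2, was at 4.76 FPKM in treated and 3.39 FPKM in untreated T24 (0.39) and at 4.24 FPKM in treated and 5.04 FPKM in untreated 5637 (-0.20). Its counting intervals lay on opposite sides of 1, at 1.27 to 1.54 in T24 and 0.776 to 0.914 in 5637.

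**Figure D3:**
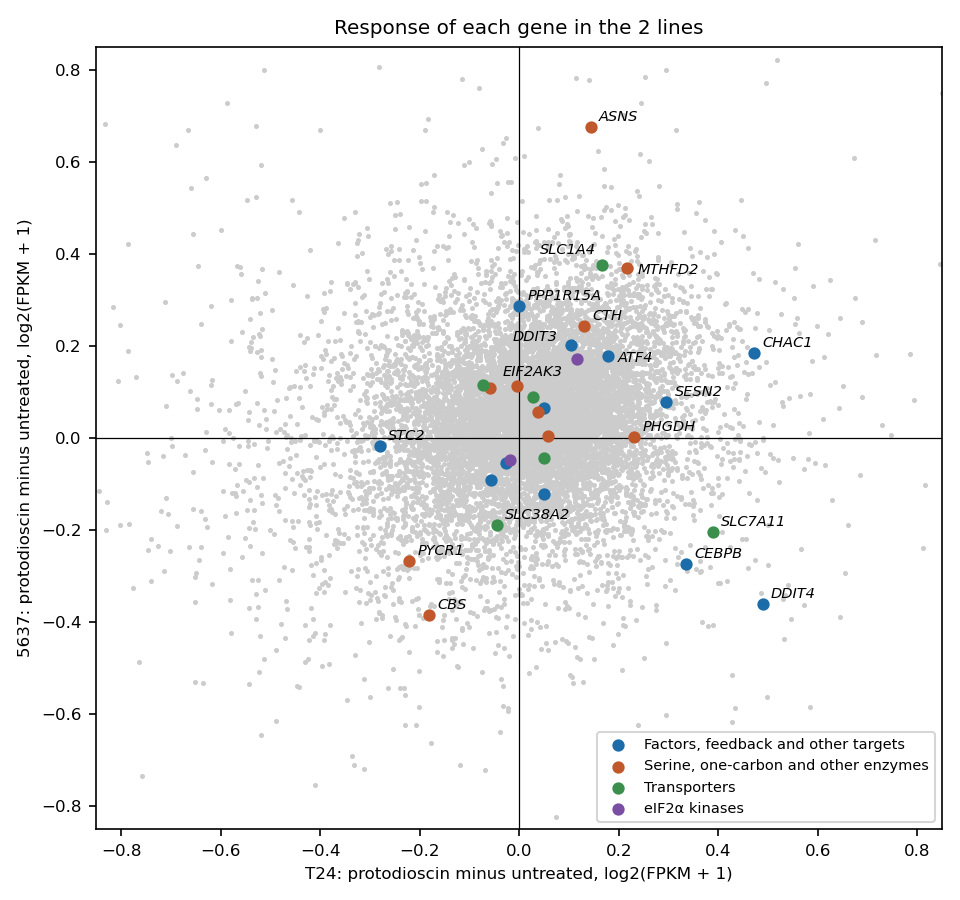
Protodioscin minus untreated in log2(FPKM + 1), T24 on the horizontal and 5637 on the vertical axis, for the 30 genes compared in both lines (coloured by role) and all other genes compared in both (grey). The axes end at 0.85, and 95 of 11417 genes lie outside them. DDIT4, CEBPB and SLC7A11 sit at the lower right, higher with protodioscin in T24 and lower in 5637.

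Across both lines, 15 of the 30 genes were above 0 in both, 7 were below 0 in both and 8 had opposite signs. Over all 11417 genes compared in both lines these shares were 39.2%, 19.8% and 41.0%. With quantile scaling 11 genes were above 0 in both and 12 had opposite signs. At 0.1 or more, 8 genes were higher in both treated libraries, ATF4, DDIT3, CHAC1, ASNS, MTHFD2, CTH, SLC1A4 and EIF2AK3, beside 13.8% of all genes. With median-ratio or quantile scaling DDIT3 and EIF2AK3 dropped out and 6 were left, and with a pseudocount of 5 there were 4. The 2 lower ones, CBS and PYCR1, stood beside 6.44%. Across the 30 genes, the differences of the lines had a Pearson correlation of 0.11 and a Spearman correlation of 0.22, against 0.12 and 0.19 across all genes. Genes of 1 library are not independent, and the lines had different doses.

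The effect of treatment over both lines was fitted with limma on all 4 libraries, with the line as a term. It held the 12893 genes for which 2 or more libraries reached 1 FPKM, 30 of them from the list, with 1 residual degree of freedom. limma called 0 of the 30 genes at an adjusted p below 0.05, beside 0.0% of all genes. Without adjustment, 7 of the 30 had a p below 0.05, beside 9.52% of all genes. Of these 7, 5 were higher and 2 lower in treated cells, beside 5.58% and 3.94% of all genes. They were MTHFD2 at 0.29 (SE 0.073), ATF4 at 0.18 (SE 0.058), ASNS at 0.41 (SE 0.14), CHAC1 at 0.33 (SE 0.12) and SLC1A4 at 0.27 (SE 0.11) upward. PYCR1 at -0.25 (SE 0.079) and CBS at -0.28 (SE 0.11) were the 2 downward. The count of 7 was 3 with no filter on low values and 0 without the line term. It was 5 without exon-sharing genes, a setting that leaves out ASNS and PYCR1, both among the 7. The adjusted p of these 7 genes from limma lay between 0.482 and 0.519. Whether the lines responded differently could not be tested, because 1 library per line and treatment leaves no residual for the interaction.

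**Figure D4:**
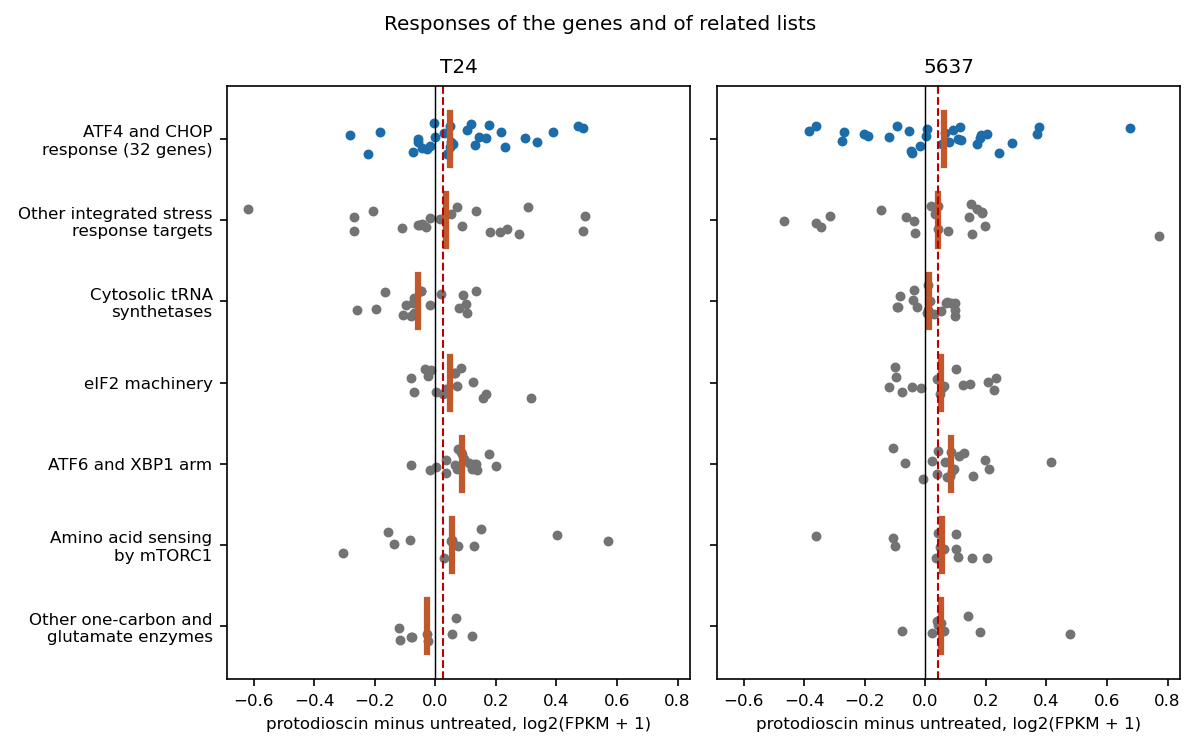
Protodioscin minus untreated in log2(FPKM + 1) for the 32 genes (blue) and for related lists (grey), T24 on the left and 5637 on the right. Each point is a gene at 1 FPKM or more, the short bars are list medians and the dashed line is the median of all genes. The list medians lie between -0.06 and 0.09 in T24 and between 0.01 and 0.08 in 5637.

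Other genes of the integrated stress response also lay on both sides of 0. Of 26 further targets, 22 were compared in T24, with a median of 0.03, 4 at least 0.25 higher and 3 at least 0.25 lower. In 5637, 21 were compared, with a median of 0.04, 1 at least 0.25 higher and 4 at least 0.25 lower. Of all genes, 8.0% were at least 0.25 higher and 8.58% lower in T24, and 9.31% and 6.4% in 5637. limma called 0 of 22 further targets at an adjusted p below 0.05. Without adjustment 5 of them had a p below 0.05, beside 9.52% of all genes. Of these 5, 3 were higher in treated cells. Besides the genes described next, and picked after their values were seen, KLHL24, SQSTM1 and GDF15 were past 0.25 upward and MTHFD1L downward in T24, and JDP2 and SLC6A9 downward in 5637. KLHL24 rested on about 22 and 9 fragments in treated and untreated T24. The counting interval of its ratio, 0.844 to 4.70, included 1, unlike those of the others in the lines named. ATF3, a factor induced by ATF4 and by other stress pathways, was at 10.0 FPKM in treated and 6.81 FPKM in untreated T24 (0.50), and at 3.80 FPKM in treated and 1.81 FPKM in untreated 5637 (0.77). The angiogenic factor VEGFA was at 19.9 FPKM in treated and 24.2 FPKM in untreated T24 (-0.27), and at 17.2 FPKM in treated and 22.1 FPKM in untreated 5637 (-0.34). UNC13D, which primes secretory granules and is not an established ATF4 target, was at 18.0 FPKM in treated and 28.2 FPKM in untreated T24 (-0.62), and at 81.3 and 101 FPKM in treated and untreated 5637 (-0.32).

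The cytosolic aminoacyl-tRNA synthetases, which charge tRNA and many of which ATF4 drives, stayed near their untreated levels. All 18 were compared, with medians of -0.06 in T24 and 0.01 in 5637. In T24, 0 were at least 0.25 higher and 1, VARS1, was at least 0.25 lower (-0.26), and in 5637 0 passed this size in either direction. The eIF2 machinery of 16 genes (other kinases, the eIF2 and eIF2B subunits, phosphatase subunits and the mitochondrial stress relay) had medians of 0.05 in both lines. Its single gene past 0.25 was OMA1, a protease of that relay, at 0.32 in T24. The 18 genes of the ATF6 and XBP1 arm, the other branches of the unfolded protein response, had medians of 0.09 in T24 and 0.08 in 5637, with 16 and 15 of 18 above 0. Of all genes, 56.0% in T24 and 61.5% in 5637 were above 0, with medians of 0.02 and 0.04. MANF, a secreted protein of the endoplasmic reticulum, was the single gene of this arm past 0.25, at 0.41 in 5637. VARS1, OMA1 and MANF are named because of their values. limma called 0 genes of these lists at an adjusted p below 0.05. Without adjustment, 0 synthetases, 2 genes of the eIF2 machinery (DELE1 and OMA1) and 1 of the ATF6 and XBP1 arm (DNAJB11) had a p below 0.05. Over all genes that share was 9.52%.

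**Figure D5:**
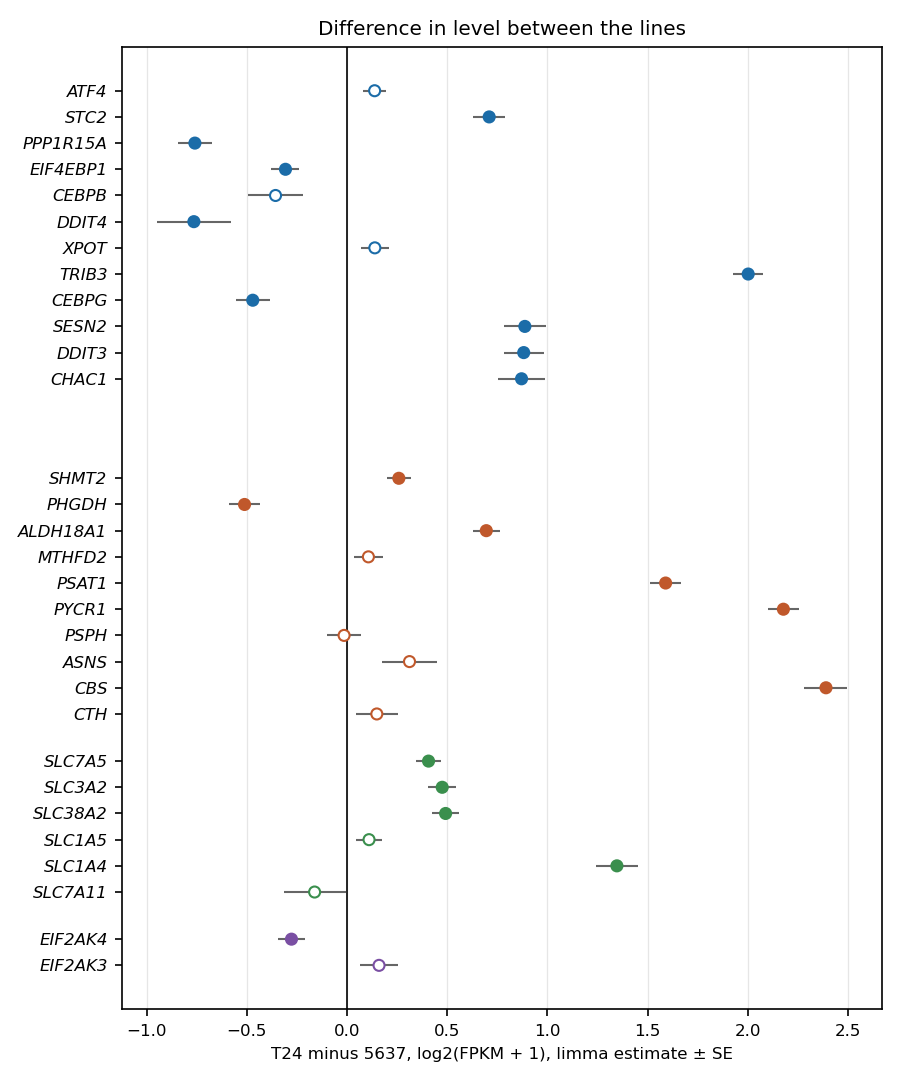
Difference in level between the lines, T24 minus 5637 in log2(FPKM + 1), as the limma estimate with its standard error over all 4 libraries. Filled points have an adjusted p below 0.05 and open points do not. CBS, PYCR1, TRIB3, PSAT1 and SLC1A4 lie at 1.35 or more, all higher in T24.

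The share of the list that differed between the lines was near that of all genes. limma called 20 of the 30 genes between T24 and 5637 at an adjusted p below 0.05, 14 higher and 6 lower in T24, beside 68.9% of all genes, 35.1% higher and 33.9% lower. The 2 libraries of a line share its cells and may share a culture batch, so these p-values cover no more than the variation among 4 libraries. In all, 5 genes of the list differed by 1 or more on the log2 scale, 5 higher and 0 lower in T24, beside 8.09% of all genes higher and 10.8% lower by that much. CBS differed by 2.39 (SE 0.11, limma adjusted p 1.29e-05), PYCR1 by 2.18 (SE 0.079, limma adjusted p 5.7e-06) and TRIB3 by 2.002 (SE 0.074, limma adjusted p 6.18e-06). PSAT1 differed by 1.59 (SE 0.077, limma adjusted p 1.65e-05) and SLC1A4 by 1.35 (SE 0.11, limma adjusted p 0.000102).

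The enzymes of serine and proline synthesis did not all differ in the same direction. PSAT1, PYCR1, ALDH18A1 and SHMT2 were higher in T24, PHGDH was lower in T24 (-0.51, SE 0.077, limma adjusted p 0.00151), and PSPH differed by -0.01 (SE 0.084, limma adjusted p 0.884). Among the stress genes, DDIT3, SESN2, CHAC1 and STC2 were higher in T24 by 0.71 to 0.89. PPP1R15A, DDIT4, CEBPG, EIF4EBP1 and EIF2AK4 were lower in T24, at -0.76 to -0.28 on the same scale. The transporters SLC7A5, SLC3A2 and SLC38A2 were higher in T24 by 0.41 to 0.49. ATF4 itself, at 0.14 (SE 0.058, limma adjusted p 0.0765), and ASNS, at 0.31 (SE 0.14, limma adjusted p 0.0887), did not pass.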

How the data were processed

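Messenger RNA of 4 libraries was measured, 1 for each line and treatment. The authors deposited gene-level FPKM, and the submitters' processing notes list Trimmomatic, HISAT2, StringTie and GRCh38; for versions, settings and annotation, nothing is given in the sources used here. Per the labels' protocols, the TruSeq RNA v2 kit and paired reads of 150 bases were used. Symbols came from a table of gene names, and coordinates, transcript lengths and exon overlap (bedtools 2.31.1) from GENCODE 29.

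The values were analysed as log2(FPKM + 1) in Python 3.11.15 (pandas 2.3.3, scipy 1.17.1). limma 3.58.1 in R 4.3.3 fitted line and treatment with a trended prior variance and Benjamini-Hochberg adjustment over 12893 genes, and was tested on simulated data. The labels do not say whether cultures were independent, so the p-values reflect variation among these 4 libraries, which may be technical. The cell line pairs the libraries. Fragment numbers are approximate, from the lowest values of single-transcript genes, with 2 of the steps between those values taken as 1 fragment.

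The members and lists were chosen with earlier results of these data known. Values are printed for members past 0.25 in either line, for ATF4, DDIT3, the kinases and members under 1 FPKM, with others added for their place in the pathway. Genes of other lists are named where they reach 0.25 in the same direction in both lines, or 0.5 in 1 line; the few others named were chosen after their values were seen. Alternatives were other pseudocounts, filters and scalings, no exon-sharing genes, no line term and a constant prior variance.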

Additional observations from a re-analysis of the deposited data

Results flagged for a closer look

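For 3 genes, treated cells were higher in T24 and lower in 5637, past 0.25 on the log2 scale in at least 1 line and past 0.1 in the other. The response in T24 minus the response in 5637 was 0.85 for DDIT4, 0.61 for CEBPB and 0.59 for SLC7A11. Opposite signs of any size were found in 8 of the 30 genes and in 41.0% of all genes compared in both lines. The share of all genes past the stricter rule for these 3 is not given, so their number has no background beside it. The difference was not tested, since each response rests on 1 library per group, and the doses of the lines differed. The signs held under the other pseudocounts and scalings, where the difference ranged from 0.74 to 0.93 for DDIT4, from 0.56 to 0.67 for CEBPB and from 0.34 to 0.73 for SLC7A11.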

How the results depend on the processing

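Of 377 alternative values of single genes, 345 stayed within the median residual SD of limma's fit (0.064 on the log2 scale) or on the same side of the test, 32 moved by more, and 0 of those past 0.25 changed sign. Of 67 for the whole list, 64 stayed, 3 moved and 0 changed sign. The list medians, 0.0498 in T24 and 0.0611 in 5637, are smaller than 0.064, so a fall to 0 would have counted as staying. Counts were judged by their ratio to the main count. By that rule 6 genes at least 0.25 lower in 5637 with median-ratio scaling, in place of 4, also counted as staying. limma called 0 genes of the list for treatment under every alternative, with the lowest adjusted p between 0.374 and 0.742 where the line was a term. The paired design is the line: with no replicate block, that is treatment alone, limma also called 0 genes and the lowest adjusted p was 0.999993. Over all genes, limma called 2 for treatment with a pseudocount of 0.1 and 2 without exon-sharing genes. Between the lines, 19 to 23 genes of the list were called. The count at least 0.25 higher in T24 was 3 with a pseudocount of 5, in place of 5. In 5637 the count higher was 7 with a pseudocount of 0.1, in place of 4, and the count lower was 2 with a pseudocount of 5, in place of 4. The median of the list ranged from 0.03 to 0.06 in T24 and from 0.0014, with a filter at 5 FPKM, to 0.07 in 5637. The ASNS difference in 5637 ranged from 0.44 to 0.77. DDIT3, CHAC1, CTH, CBS and SLC1A4 in 5637 rest on under 100 fragments a library, which limits what these data can show for them. Leaving out a replicate was not possible with 1 library per group.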

Other observations

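Of the genes that pass amino acid supply to mTORC1, 3 of 13 compared in T24 and 1 of 12 in 5637 were past 0.25 on the log2 scale. Of all genes, 8.0% were that much higher and 8.58% lower in T24, and 9.31% and 6.4% in 5637. CASTOR2, a relative of the arginine sensor CASTOR1, was at 1.91 FPKM in treated and 0.959 FPKM in untreated T24 (0.57 on the log2 scale), and at 3.36 FPKM in treated and 4.61 FPKM in untreated 5637 (-0.36). The counting intervals of its ratios lay on opposite sides of 1, at 1.22 to 3.26 in T24 and 0.564 to 0.938 in 5637. The list had medians of 0.05 in T24 and 0.06 in 5637, with 13 and 12 of 15 genes compared. Chosen after their values were seen, SESN1, another sestrin, was at 0.40 and CASTOR1 at -0.31 in T24, and the counting intervals of both ratios, 0.947 to 2.63 and 0.316 to 1.35, included 1. Other one-carbon and glutamate enzymes had medians of -0.03 in T24 and 0.05 in 5637, with 9 of 10 genes compared in each, and GCAT, which splits the threonine product into glycine and was also chosen after its value was seen, was at 0.48 in 5637. limma called 0 genes of these lists at an adjusted p below 0.05, and 0 had an unadjusted p below 0.05.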
